A study of Mus musculus with 4 samples.

Results

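The comparison described here set mouse lung endothelial cells whose glucocorticoid receptor (GR, encoded by Nr3c1) had been knocked down by siRNA against cells that received a control siRNA, with dexamethasone (DEX) given in both arms. Its members were the genes with at least 1 FPKM (fragments per length of transcript and per size of library) in at least 1 of the 2 columns compared, which were 11344 of the 23997 genes in the expression table. Each gene's difference was its log2(FPKM + 1) with GR siRNA and DEX minus its log2(FPKM + 1) with control siRNA and DEX, so a negative value means a lower level in the cells with less receptor. The cells came from C57BL/6 mice, were grown in endothelial medium with serum and were exposed to siRNA for 48 h and to DEX at 100 nM for 18 h. The reference arm was therefore not an untreated culture: it held the receptor and its ligand together, and the GR siRNA arm held the same ligand with less receptor. The corresponding pair without DEX, control siRNA and GR siRNA, is given beside it where useful. An siRNA lowers a transcript and does not delete the gene, and the sources used here do not say whether the cells were pooled from several animals or passed through many divisions.

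GR is a nuclear receptor that waits in the cytoplasm with chaperones until a glucocorticoid binds it. It then enters the nucleus, raises transcription at DNA elements made of 2 inverted 6-base repeats, and lowers transcription of many inflammatory genes by acting on AP-1 and NF-kappaB. DEX is a synthetic glucocorticoid with high affinity for GR, and in endothelium glucocorticoids are known for tightening junctions and for limiting leukocyte adhesion. Serum contains some glucocorticoid of its own.

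The series describes each condition in triplicate, and the table has 1 column per condition, so no spread between replicates could be computed and no test was made. The columns summed to 566610 FPKM for control siRNA with DEX and 556909 FPKM for GR siRNA with DEX. No read depth was given. Genes at 1 or a few fragments placed the control column 1.19 times as deep as the GR siRNA column, from 361 of 1851 genes under 0.1 FPKM that shared one ratio within 0.2%. Values near 1 FPKM are the least precise, and "higher" and "lower" below describe 2 columns, not 2 populations of cultures.

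Nr3c1 itself, the target of the siRNA, stood at 14.3 FPKM in the control arm and at 5.32 FPKM in the GR siRNA arm. Without DEX the values were 14.4 and 5.45 FPKM. The 2 GR siRNA columns were thus low and the 2 control columns high, with a difference of −1.28 with DEX and −1.26 without, and the level in control cells was 2.69 times that in GR siRNA cells with DEX. A reduced level of receptor RNA remained in the GR siRNA arm, and the protein was not measured.

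The columns carried the RNA of endothelium. Pecam1, the platelet and endothelial adhesion molecule, was at 278 FPKM in the control arm and 282 FPKM in the GR siRNA arm. Cdh5, which encodes the adherens junction protein VE-cadherin, was at 415 and 384 FPKM, and Kdr, the main VEGF receptor, at 85.9 and 93.3 FPKM. Markers of other cells were scarce: 5 of 16 fibroblast and mural cell markers, 4 of 17 markers of lung epithelium and mesothelium and 5 of 21 markers of leukocytes, platelets and red cells reached 1 FPKM in either arm. Ptprc, the pan-leukocyte antigen CD45, was 0 in all 4 columns, as were Rgs5, a pericyte marker, and Tcf21, a lung fibroblast factor. The summed level of the fibroblast and mural list was 18.9 FPKM in the control arm and 25.2 FPKM in the GR siRNA arm, that of the epithelial list 15.6 and 19.3 FPKM, and that of the blood cell list 171 and 234 FPKM. Most of the last sum was Cd68, a lysosomal protein of macrophages and of other cells, at 161 and 218 FPKM. All 3 sums were higher in the GR siRNA arm, and their part in the results below was not tested. In bulk RNA, fewer cells of a type and less RNA per cell cannot be told apart.

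The 2 arms were close for most genes. The middle 50 percent of differences lay between −0.14 and 0.12 and the middle 90 percent between −0.43 and 0.40, with a median of −0.01; 5467 genes were higher and 5877 lower with GR siRNA. At 1.5-fold on the log2(FPKM + 1) scale (a difference of 0.585), 268 genes (2.36%) were higher and 297 (2.62%) lower. At 2-fold, 65 genes (0.573%) were higher and 88 (0.776%) lower. Which side held more genes changed with the pseudocount and the scaling, as given in the section on processing. These shares are the background against which the counts of each gene group below are read.

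Many of the most extreme differences belonged to short genes, for which FPKM is unstable. Of the 88 genes at least 2-fold lower, 58 had no annotated transcript of 300 nt or more, and the median FPKM of the 88 in the GR siRNA arm was 0. Of the 65 at least 2-fold higher, 32 were as short. Among the 8566 genes that have an annotated transcript of 300 nt or more and fewer than 10% of their 31-base words in another gene (called long and unshared here), 26 passed 2-fold on the high side and 21 on the low side, and 187 and 181 passed 1.5-fold. Genes named below are of this class unless a share of sequence is given.

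**Figure D1:**
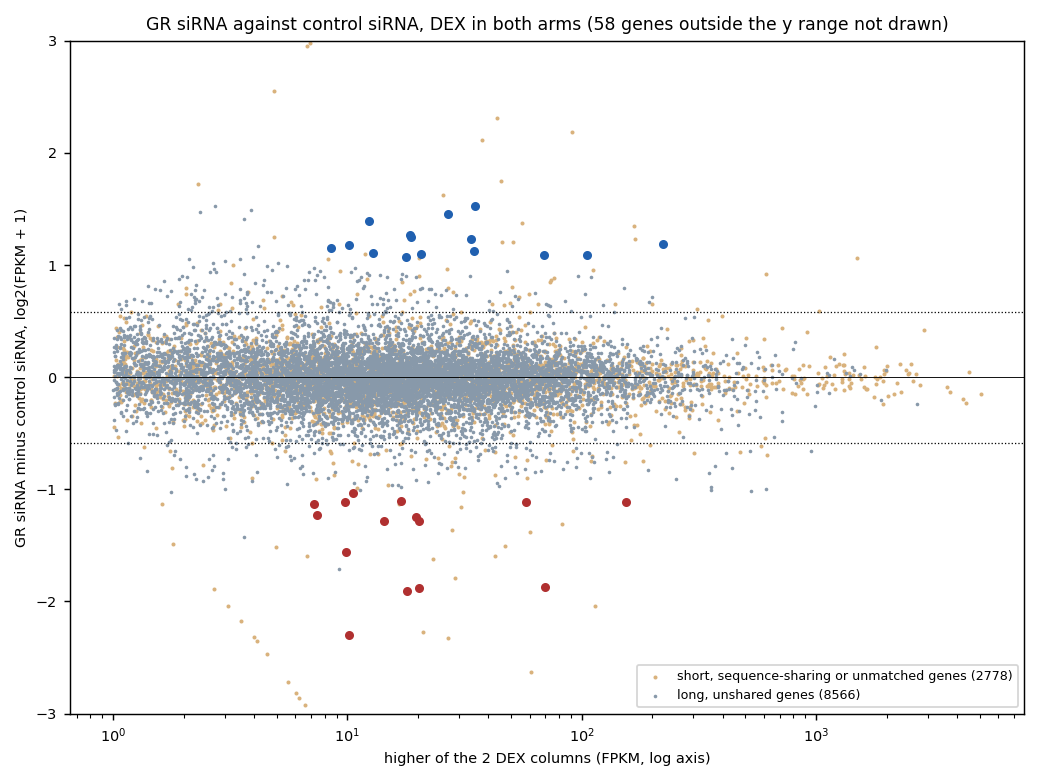
Each point is 1 gene with at least 1 FPKM in either arm. The horizontal axis (log scale) is its higher FPKM of the 2 columns and the vertical axis the difference of log2(FPKM + 1), GR siRNA minus control siRNA, both with DEX. Grey points are the 8566 long, unshared genes, and tan points the others. Dotted lines mark 1.5-fold, and 58 genes beyond 3 in either direction are not drawn. The 15 lowest (red) and 15 highest (blue) named genes sit outside the dense band that holds most genes at every level.

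In what follows, a pair of FPKM values gives the control arm first and the GR siRNA arm second, both with DEX, and the number in parentheses is the difference of log2(FPKM + 1). Among long, unshared genes of at least 5 FPKM in either arm, the 15 with the lowest difference were of varied function. Lcn2, the iron-siderophore binding protein lipocalin 2, was at 10.2 FPKM in the control arm and 1.26 FPKM in the GR siRNA arm, the lowest difference of the 15 (−2.30). Lrg1, a secreted leucine-rich glycoprotein of the acute phase that modulates TGF-beta signalling in vessels, was at 20.3 and 4.78 FPKM (−1.88). Thrsp, a nuclear protein associated with lipogenesis, was at 18.0 and 4.08 FPKM (−1.91), and Ucp2, an uncoupling carrier of the inner mitochondrial membrane, at 69.9 and 18.4 FPKM (−1.87). Rgcc, a regulator of the cell cycle that responds to complement (chr14:79288756-79301645, minus strand), stood at 9.92 and 2.70 FPKM (−1.56).

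Glipr2, a Golgi-associated protein that restrains autophagy (chr4:43957401-43979118), was at 20.2 FPKM in the control arm and 7.74 FPKM in the GR siRNA arm, with a difference of −1.28. Rab3a, a small GTPase of regulated exocytosis, was at 19.6 and 7.70 FPKM (−1.24). Trim9, a ubiquitin ligase best known from neurons, was at 7.39 and 2.57 FPKM (−1.23). Masp1, a serine protease of the lectin pathway of complement, was at 7.20 and 2.76 FPKM (−1.13). Pak3, a kinase activated by Rac and Cdc42, was at 9.74 and 3.95 FPKM (−1.12). Spsb1, an adaptor that brings substrates to a ubiquitin ligase (chr4:149896283-149955043, minus strand), was at 17.0 and 7.37 FPKM (−1.10), and Mpp3, a membrane scaffold, at 10.6 and 4.66 FPKM (−1.03). Plat, tissue plasminogen activator, was the most abundant of the 15, at 155 and 71.3 FPKM (−1.11). Tsc22d3, which encodes the classical glucocorticoid-induced protein GILZ, was at 57.9 and 26.2 FPKM (−1.12). Each of these genes was also lower with GR siRNA in the pair without DEX; for example Rab3a was at 19.7 and 8.39 FPKM there, and Pak3 at 10.4 and 3.94 FPKM.

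The 15 highest differences ranged from 1.07 to 1.53, against −2.30 to −1.03 for the lowest, and belonged to genes of varied function. Fabp5, a fatty acid binding protein, was at 11.5 and 35.0 FPKM (1.53), and Scd1, the stearoyl-CoA desaturase, at 9.20 and 26.9 FPKM (1.45). Slc12a8, of the cation-chloride cotransporter family, was at 4.08 and 12.4 FPKM (1.40). Slc6a6, the taurine transporter (chr6:91684053-91759066), was at 13.8 and 33.7 FPKM (1.23). Txnrd3, a thioredoxin and glutathione reductase, was at 7.11 and 18.5 FPKM (1.26), and Fam213a, a redox protein of the peroxiredoxin type, at 5.42 and 12.8 FPKM (1.11). Ephx1, the microsomal epoxide hydrolase, was at 9.06 and 20.5 FPKM (1.10), and Ddc, the aromatic amino acid decarboxylase that makes dopamine and serotonin, at 3.26 and 8.48 FPKM (1.16).

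Cxcl12, a chemokine that retains progenitor cells and guides vessel growth, was the most abundant, at 97.5 and 223 FPKM (1.18). Vegfc, the lymphatic growth factor, was at 31.8 and 68.8 FPKM (1.09). Thbs2, a matricellular inhibitor of angiogenesis (chr17:14665500-14694235, minus strand), was at 49.3 and 106 FPKM (1.09). Tslp, a cytokine of allergic inflammation, was at 3.95 and 10.2 FPKM (1.18), and Gja4, an arterial gap junction protein, at 7.95 and 17.8 FPKM (1.07). Tmem37, a membrane protein related to calcium channel subunits, was at 7.28 and 18.7 FPKM (1.25), and Sprr1a, a small proline-rich protein, at 15.3 and 34.6 FPKM (1.12). For each of the 30 genes both GR siRNA columns lay on the same side of both control columns.

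**Figure D2:**
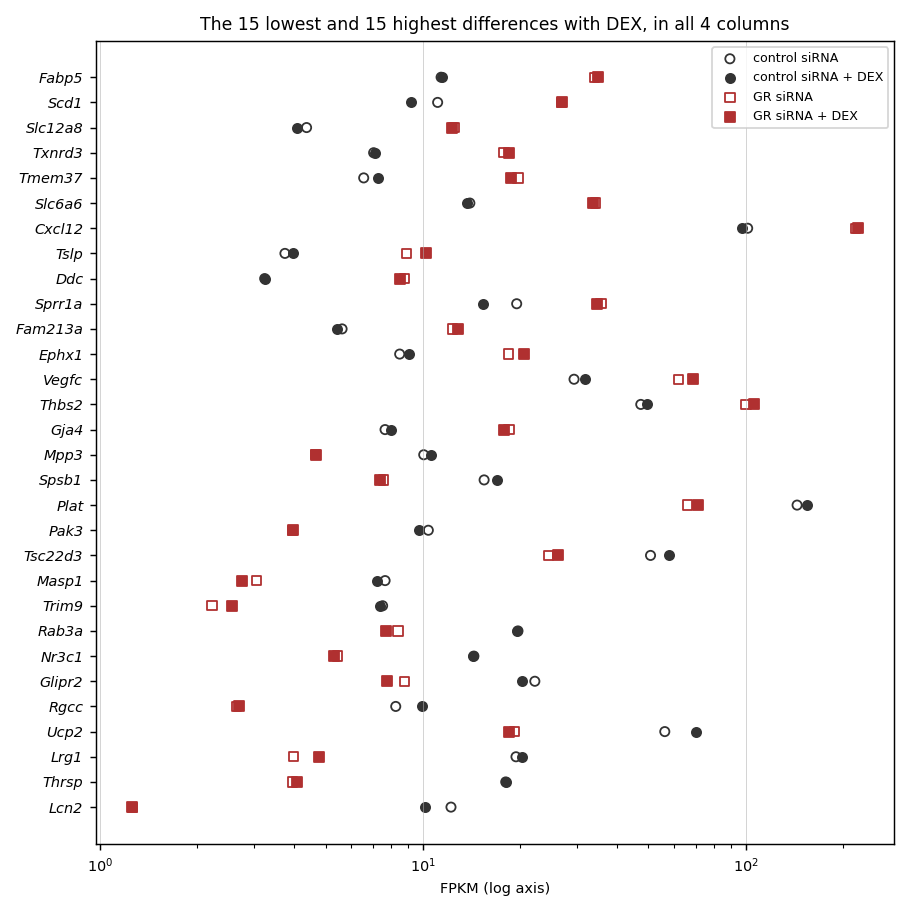
FPKM (log axis) of the 15 highest (top) and 15 lowest (bottom) genes in all 4 columns: circles are control siRNA, squares GR siRNA, filled symbols with DEX and open symbols without. Filled and open symbols of one siRNA nearly coincide for most genes, as for Nr3c1 at 14.3 and 14.4 FPKM, while circles and squares stand apart.

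Sequence was looked at in 2 places, the promoter and the 3′ untranslated region, because the first is where the receptor and its partner factors can bind and the second is where an siRNA can pair with transcripts other than its target. RefSeq promoters (GRCm38.p6, 250 bases before to 50 bases after the gene start) were matched for 8529 of the 11344 genes. The full GR element (AGAACA and TGTTCT with 3 free bases between them) occurred in 1 of these promoters and in none of the promoters of the genes at least 1.5-fold lower or higher. A looser core (GNACA and TGTNC with 3 free bases between them, either strand) occurred in 28 (0.328%), in 1 of 167 promoters of lower genes and in 1 of 159 of higher genes. The lower gene was Map3k6, a MAP kinase kinase kinase on the list of GR-induced targets, and the higher gene was Suox, the sulfite oxidase. These windows are short, and GR is known to bind far from promoters. The 2 core matches are shown with the core in capitals, Map3k6 at chr4:133240617-133240669 on the plus strand and Suox at chr10:128673932-128673984 on the minus strand.

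Map3k6: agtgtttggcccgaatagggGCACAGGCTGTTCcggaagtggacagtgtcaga

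Suox: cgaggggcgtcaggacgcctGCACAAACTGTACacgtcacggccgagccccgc

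The AP-1 element TGANTCA (either strand), the site of Fos and Jun dimers that GR is known to restrain, was the motif whose share differed most between the groups. It occurred in 511 of the 8529 promoters (5.99%), in 24 of 159 promoters of higher genes (15.1%) and in 14 of 167 of lower genes (8.38%). Among all 27025 promoters of the table the share was 8.97%. Restricted to long, unshared genes, the shares were 13.5% of 133 higher genes and 7.25% of 138 lower genes, against 5.85% of measured genes of that class. Genes with and without the element had near-equal medians over all measured genes (0.00 and −0.01). Among the 30 named genes, Tmem37, Ddc and Sprr1a on the higher side and Trim9 on the lower side held it. The motif is in capitals below, all on the minus strand: Tmem37 at chr1:120073857-120073903, Ddc at chr11:11898247-11898293, and the first and second copy of Sprr1a at chr3:92486001-92486047 and chr3:92485971-92486017.

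Tmem37: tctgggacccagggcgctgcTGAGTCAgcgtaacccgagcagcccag

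Ddc: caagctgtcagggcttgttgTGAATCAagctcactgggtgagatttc

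Sprr1a, first copy: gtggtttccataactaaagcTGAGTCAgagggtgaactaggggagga

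Sprr1a, second copy: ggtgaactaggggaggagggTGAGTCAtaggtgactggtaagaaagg

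The sterol element TCACNCCAC occurred in 115 promoters (1.35%), 3 of them of lower and none of higher genes, and the C/EBP site TTGCGCAA in 30 (0.352%), 1 of them of a lower and none of a higher gene. A match is a description of letters, and its absence says only that these letters are not in this window.

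The 3′ untranslated regions of lower and higher genes also differed in their letters. The overlapping 7-base words TTCTGAA and TCTGAAA (read 5′ to 3′ on the transcript's strand) were looked up because an earlier pass over these data had found them enriched among lower genes, so what follows describes that pattern and does not support it independently. Of 10703 genes with an annotated region of at least 50 nt, 3445 (32.2%) held at least 1 of the words. The share was 50.9% (109 of 214) among genes at least 1.5-fold lower and 26.3% (56 of 213) among genes at least 1.5-fold higher. The median difference was −0.05 for genes with a word and 0.01 for the 7258 without one. For the 964 genes whose region held both words overlapped as 8 bases, TTCTGAAA, the median was −0.10, and 5.19% were at least 1.5-fold lower and 1.14% at least 1.5-fold higher, against 1.45% and 2.16% of genes with neither word. The median was lower with a word than without in each of 4 bands of region length, from the shortest (−0.04 and 0.02) to the longest (−0.05 and 0.02). Without DEX the medians were −0.06 and 0.01. Whether these words are paired by the siRNA was not tested, since its sequence was not at hand.

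Windows of 30 bases around the 8-base word are shown for lower genes, with the word in capitals and coordinates of mm10 from GENCODE M21. Glipr2 (chr4:43977830-43977859, plus strand) and Spsb1 (chr4:149896348-149896377, minus strand) are among the 15 lowest genes. Ednrb, the endothelin B receptor (chr14:103816408-103816437, minus strand), is a list member, and Serinc3, a multipass membrane protein (chr2:163625377-163625406, minus strand), was chosen after its values were seen. Serinc3 was at 530 FPKM in the control arm and 261 FPKM in the GR siRNA arm (−1.02).

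Glipr2: ggtaagattagTTCTGAAAtcttttttctg

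Spsb1: ggcatgtatagTTCTGAAAcccccgttctg

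Ednrb: atgcctgagacTTCTGAAAttccctcacac

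Serinc3: agagtctccttTTCTGAAAatgcatatcca

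The same word also stands in transcripts that were higher with GR siRNA. Scd1 (chr19:44397421-44397450, minus strand) and Cxcl12 (chr6:117177769-117177798, plus strand) are shown as such cases.

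Scd1: acctttctgttTTCTGAAAtactgatcctt

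Cxcl12: ggaagaccactTTCTGAAAtgcccatggac

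Gene groups were then described by 55 lists, each by its measured members, the number at least 1.5-fold higher or lower and the median difference, to be read against 2.36% higher, 2.62% lower and a median of −0.01 over all genes. The lists held 1424 symbols, of which 1078 were measured in this pair of columns. Some members reached 1 FPKM in only 1 arm, so the filter fixed the direction of their difference. For example, Acss2, Lpl, Ccl7, Emilin2, Dcn, Sema3d and the epithelial marker Sftpb entered only through the GR siRNA arm. Zbtb16, Sult1a1, H19 and the blood cell marker Itga2b entered only through the control arm. All such members, named here or not, are included in the counts and medians below. The list of GR-induced genes comes first. Of 29 measured GR-induced genes, 7 were at least 1.5-fold lower and 2 at least 1.5-fold higher, and 22 were lower by any amount, with a median of −0.18. Among the 19 without the 3′ words the median was −0.34. Zbtb16, the zinc finger repressor PLZF, was at 3.61 and 0.715 FPKM (−1.43). Per1, the clock gene with a known GR element, was at 16.5 and 7.99 FPKM (−0.96). Map3k6 was at 24.4 and 13.1 FPKM (−0.85). Ddit4, an inhibitor of mTORC1, was at 440 and 251 FPKM (−0.81), and Fkbp5, a chaperone that lowers GR's affinity for hormone, at 94.9 and 54.1 FPKM (−0.80). Sult1a1, a sulfotransferase with 11.4% of its sequence shared, was at 1.79 and 0.591 FPKM (−0.81). Together with Tsc22d3 these are the 7 lower members. Angptl4, which encodes a secreted inhibitor of the lipase LPL, stood on the high side at 5.91 and 12.2 FPKM (0.93), as did the transcription factor Tfcp2l1 at 1.05 and 2.23 FPKM (0.66).

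Zinc-binding metallothioneins, which glucocorticoids are known to induce, and zinc transporters had no member past 1.5-fold among 18 measured (median 0.01), and Mt1 was at 462 and 343 FPKM (−0.43). The 11 measured C/EBP factors and acute-phase genes had 3 lower and none higher: Lcn2, Lrg1 and Cebpb. The list's median was −0.30, against −0.89 among members without the 3′ words and −0.14 with members under 1 FPKM included. Cebpb, a basic leucine zipper factor of the acute phase, was at 60.4 and 22.5 FPKM (−1.38), with 19.6% of its sequence shared with another gene. None of 19 chaperones and co-regulators of GR passed 1.5-fold (median 0.03). Of 22 other nuclear receptors, 2 were higher and 1 lower (median 0.01). Ppard, a lipid-sensing receptor, was at 33.4 and 20.8 FPKM (−0.66). The heme-binding repressors Nr1d1 and Nr1d2 (REV-ERB alpha and beta) were at 3.04 and 6.10 FPKM (0.81) and at 8.12 and 13.9 FPKM (0.70), while Per1 was lower; of 16 clock genes these were the only 3 past 1.5-fold, with a median of −0.05.

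**Figure D3:**
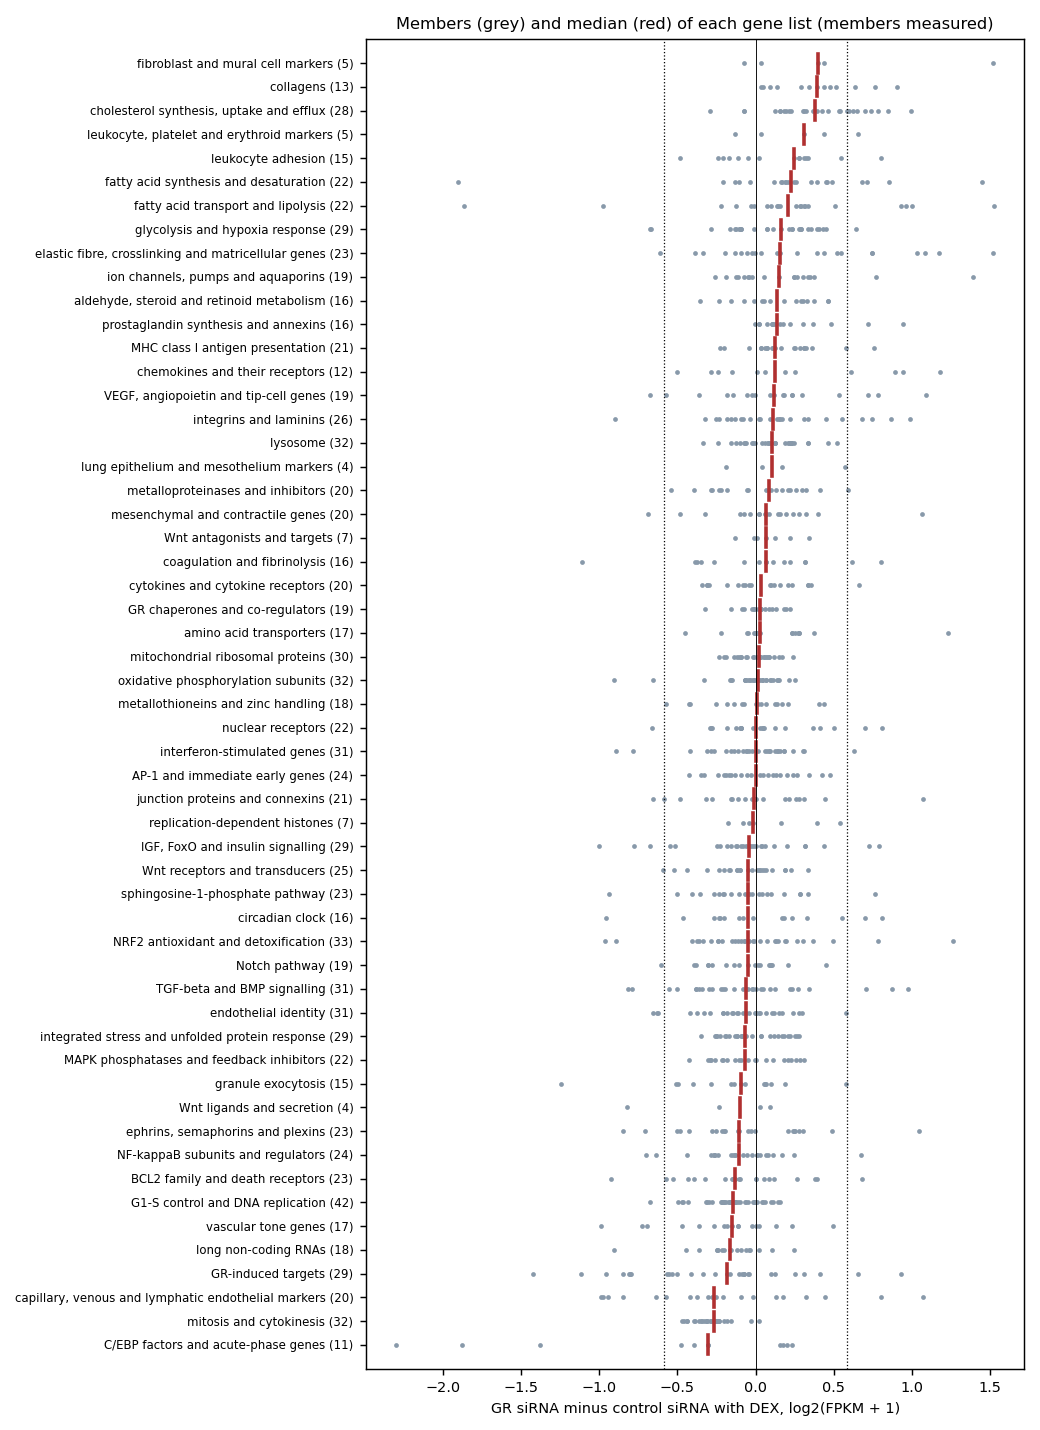
Every measured member (grey) and the median (red bar) of the 55 gene lists, ordered by median, on the scale of log2(FPKM + 1) with GR siRNA minus control siRNA, both with DEX. Dotted lines mark 1.5-fold. The medians of all lists lie between those lines, and single members such as Lcn2 at −2.30 and Fabp5 at 1.53 stand far from their list's median.

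Lipid genes were higher with GR siRNA in most cases. Of 28 genes of cholesterol synthesis, uptake and efflux, 25 were higher and 3 lower, 8 of them at least 1.5-fold higher and none at least 1.5-fold lower, with a median of 0.38. Abca1, the transporter that exports cholesterol from cells, was at 2.28 and 5.54 FPKM (1.0). In the synthesis pathway Sqle, the squalene epoxidase, was at 44.4 and 70.3 FPKM (0.65), Lss, the lanosterol synthase, at 3.34 and 6.24 FPKM (0.74), and Cyp51, the lanosterol demethylase, at 12.8 and 22.8 FPKM (0.79). Msmo1 and Sc5d, later enzymes of the pathway, had differences of 0.70 and 0.63, Hsd17b7 0.60, and Fdps, with 27.9% of its sequence shared, 0.85. Insig1, a sterol-sensing regulator of the pathway, differed little at 34.2 and 39.1 FPKM (0.18). Scarb1, the receptor for high-density lipoprotein, had the lowest difference of the list, at 22.6 and 18.3 FPKM (−0.29).

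Of 22 genes of fatty acid synthesis and desaturation, 4 were at least 1.5-fold higher and 1 lower (median 0.23). Besides Scd1, these were Scd2, a second desaturase, at 121 and 200 FPKM (0.72), Fads2, which desaturates polyunsaturated fatty acids, at 5.61 and 10.9 FPKM (0.85), and Acss2, which makes acetyl-CoA from acetate, at 0.456 and 1.34 FPKM (0.68). Fasn, the fatty acid synthase, was at 18.3 and 25.5 FPKM (0.46). The lower member was Thrsp. Of 22 genes of fatty acid transport and lipolysis, 4 were at least 1.5-fold higher and 2 lower (median 0.21). Lpl, the lipoprotein lipase, was at 0.898 and 2.70 FPKM (0.96), and Fabp3, with 50.1% of its sequence shared, had a difference of 1.0. Gpihbp1, the capillary protein that carries lipoprotein lipase across the endothelium and holds it on its surface, was lower, at 357 and 181 FPKM (−0.98). Lipase, its anchor Gpihbp1 and its inhibitor Angptl4 thus stood on different sides. The sterol element was in none of the 159 matched promoters of genes at least 1.5-fold higher. Its share over all matched promoters was 1.35%, so few matches could occur among 159. Whether it plays a part in these differences was not tested.

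**Figure D4:**
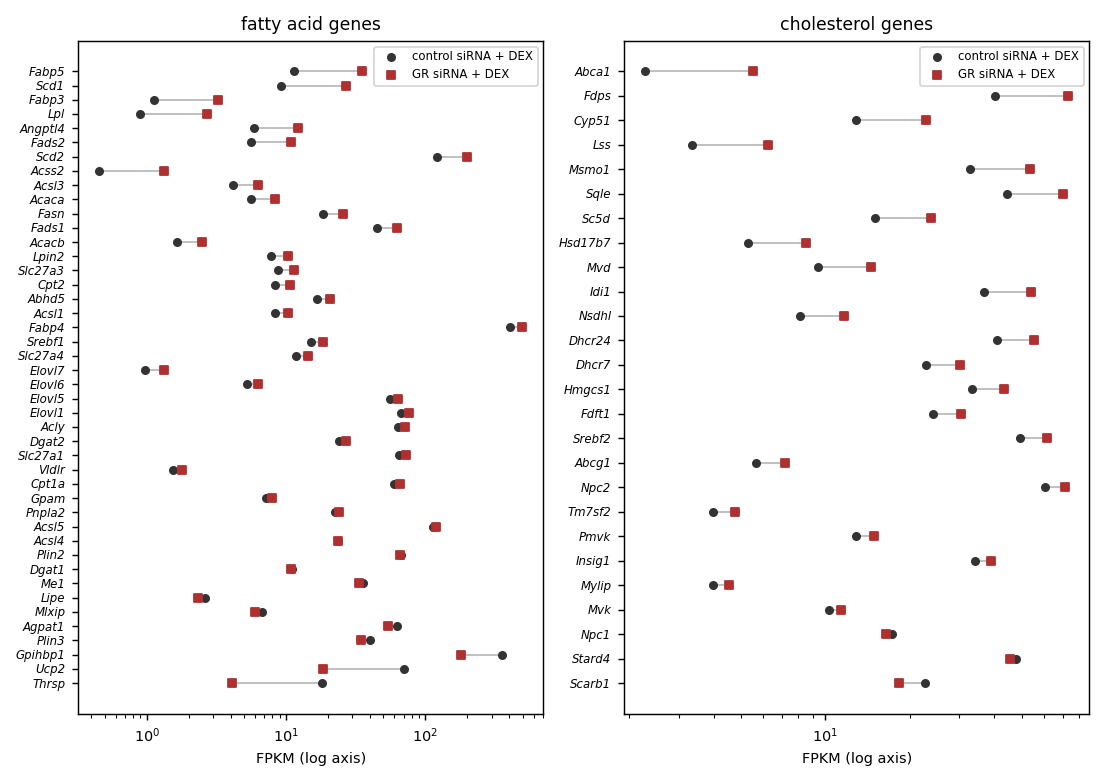
FPKM (log axis) of the measured genes of the fatty acid lists (left) and 26 of the 28 of the cholesterol list (right), sorted by difference, with control siRNA and DEX as black circles and GR siRNA and DEX as red squares. The red squares lie to the right for 23 of the 26 cholesterol genes drawn, and Thrsp, Ucp2 and Gpihbp1 lie to the left among the fatty acid genes.

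Energy metabolism showed few differences of this size. Of 29 genes of glycolysis and the hypoxia response, 1 was at least 1.5-fold higher and 2 lower (median 0.16): Hk2, a hexokinase, was at 3.23 and 5.60 FPKM (0.64), Epas1, the hypoxia factor HIF-2 alpha, at 129 and 80.5 FPKM (−0.67), and Pdk1, which restrains pyruvate oxidation, at 22.7 and 13.8 FPKM (−0.68). Of 32 subunits of oxidative phosphorylation, Ndufc2, of complex I, was at 252 and 134 FPKM (−0.91) and Atp5b, of ATP synthase, at 953 and 603 FPKM (−0.66); no other member passed 1.5-fold, and the list's median was 0.01. None of 30 mitochondrial ribosomal proteins did (median 0.02), nor any of 32 lysosomal genes (median 0.11), of 29 genes of the integrated stress and unfolded protein responses (median −0.07) or of 16 genes of aldehyde, steroid and retinoid metabolism (median 0.14). Of 33 NRF2 antioxidant and detoxification genes, 2 were higher and 2 lower (median −0.05). Cyp1a1, the cytochrome induced by the aryl hydrocarbon receptor, was at 15.5 and 7.45 FPKM (−0.96) and Gpx3, a secreted glutathione peroxidase, at 8.24 and 3.97 FPKM (−0.90). Gpx8, a peroxidase of the endoplasmic reticulum, was at 8.76 and 15.8 FPKM (0.78), and Txnrd3 was the other higher member. The taurine transporter Slc6a6 was the only 1 of 17 amino acid transporters past 1.5-fold (median 0.03). Of 19 ion channels, pumps and aquaporins, Slc12a8 and Kcnn4 were higher and none lower (median 0.15, and 0.0017 with members under 1 FPKM included); Kcnn4, the calcium-activated potassium channel of endothelium, was at 15 and 26.4 FPKM (0.77).

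Cell cycle genes differed by small amounts, mostly in 1 direction. Of 32 genes of mitosis and cytokinesis, 31 were lower with GR siRNA and 1 was higher, with a median of −0.27, yet none passed 1.5-fold. Top2a, the mitotic topoisomerase, was at 83.4 and 70.6 FPKM (−0.24). Of 42 genes of G1-S control and DNA replication, 33 were lower, with a median of −0.15, and only Cdkn1a, the inhibitor p21, passed 1.5-fold, at 99.2 and 61.8 FPKM (−0.67). The 7 measured replication-dependent histone genes had a median of −0.01 and none past 1.5-fold. Mki67, a proliferation marker, was at 22.7 and 23 FPKM (0.02). Of 23 genes of the BCL2 family and death receptors, 1 was higher and 1 lower (median −0.13). Bmf, a death-promoting BH3-only protein, was at 3.91 and 1.58 FPKM (−0.93), and Bik, another BH3-only protein, at 24.8 and 40.3 FPKM (0.68). Bcl2l1, which encodes the survival protein BCL-XL, was at 60.2 and 40.1 FPKM (−0.57).

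Most endothelial identity genes differed by less than 1.5-fold. Of 31 measured identity genes, 3 were at least 1.5-fold lower and none higher, with a median of −0.06. Cldn5, the claudin of endothelial tight junctions, was at 525 and 332 FPKM (−0.66), Gata2, a transcription factor of endothelium and blood, at 94.9 and 60.8 FPKM (−0.63), and Clec14a, a surface lectin, at 52.4 and 33.7 FPKM (−0.62). Nos3, the endothelial nitric oxide synthase, was at 225 and 226 FPKM (0.00), and Tek, the angiopoietin receptor, at 54.1 and 54.0 FPKM. The list of capillary, venous and lymphatic endothelial markers also holds arterial genes such as Gja4 and Gja5. It had 5 of 20 measured members at least 1.5-fold lower and 2 higher, with a median of −0.27. Of the 20, 12 hold the 3′ words in their transcripts; without them the median was −0.11, and with members under 1 FPKM included it was −0.08. Ednrb, a receptor for endothelin, was at 613 and 307 FPKM (−0.99), Lyve1, a hyaluronan receptor of lymphatic vessels, at 348 and 192 FPKM (−0.85), Kit, the stem cell factor receptor found on lung capillary cells, at 10.7 and 5.07 FPKM (−0.95), and Stab2, a scavenger receptor, at 11.2 and 6.83 FPKM (−0.64). Gpihbp1 was the fifth. Among other lymphatic genes of the list, Prox1 was at 0.171 and 0.126 FPKM and Pdpn at 0 and 0.027 FPKM. Flt4 was at 27.2 and 17.9 FPKM. Gja4 and Selp were higher; Selp, which encodes P-selectin and shares 12.5% of its sequence, was at 28.4 and 50.3 FPKM (0.80).

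Of 19 genes of VEGF, angiopoietin and tip-cell signalling, 3 were higher and 1 lower (median 0.12). Among the ligands Vegfc was higher, as was Angpt2, an antagonist of Tek, at 2.84 and 5.33 FPKM (0.72). Nrp1, a co-receptor for VEGF and semaphorins, was at 12.5 and 22.3 FPKM (0.78). Igfbp3, which binds insulin-like growth factors, was lower, at 414 and 258 FPKM (−0.68). In the Notch list 1 of 19 members passed 1.5-fold on the low side and none on the high side (median −0.05); that member, the feedback inhibitor Nrarp, shares 78.2% of its sequence and was at 74.4 and 48.5 FPKM (−0.61). Dll4, the Notch ligand of tip cells, was at 28.9 and 23.3 FPKM (−0.30).

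Wnt signalling, which the series names as its subject, had 2 members past 1.5-fold in its 3 lists. Of 21 Wnt ligands and secretion genes only 4 were measured, and Wnt9b, a ligand, was at 19 and 10.3 FPKM (−0.82; list median −0.10). Of 25 receptors and transducers, Fzd9, a Frizzled receptor, was at 7.82 and 4.86 FPKM (−0.59) and no other passed 1.5-fold (median −0.05). None of 7 measured antagonists and targets did (median 0.07); 17 of that list's members were under 1 FPKM in both arms.

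Among 21 junction proteins and connexins, Gja4 was higher, and Cldn5 and Gja1, a widespread connexin, were lower (median −0.01); Gja1 was at 29.9 and 19.5 FPKM (−0.59). Of 17 genes of vascular tone, 3 were lower and none higher (median −0.15). They included Ednrb and Ace, which makes angiotensin II, at 47.9 and 29.2 FPKM (−0.70). Of 16 genes of prostaglandin synthesis and annexins, 15 were higher by any amount and 2 at least 1.5-fold (median 0.14): Tbxa2r, the thromboxane receptor, at 3.10 and 6.87 FPKM (0.94), and Ptgis, the prostacyclin synthase, at 31.2 and 52.0 FPKM (0.72). Only 10 of the 16 had the same sign in the pair without DEX, where the median was 0.07. In coagulation and fibrinolysis Plat was lower, and Gas6, a ligand of TAM receptors, at 11.9 and 18.8 FPKM (0.62), and Selp were higher, of 16 measured (median 0.07). Rab3a was the only 1 of 15 granule exocytosis genes past 1.5-fold (median −0.09). Of 23 genes of the sphingosine-1-phosphate pathway, Acer2, an alkaline ceramidase, was at 22.1 and 11.1 FPKM (−0.94) and Mfsd2a, a lysolipid transporter, at 2.38 and 4.74 FPKM (0.76), with a median of −0.05. Of 23 ephrins, semaphorins and plexins, 1 was higher and 2 lower (median −0.10): Sema3d was at 0.506 and 2.12 FPKM (1.05), Sema7a at 63.1 and 34.6 FPKM (−0.85) and Sema3a at 23.5 and 14.0 FPKM (−0.71). These encode guidance proteins that repel or attract growing vessels and axons.

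Inflammatory genes were split by class. Of 12 measured chemokines and receptors, 4 were at least 1.5-fold higher and none lower, with a median of 0.12 (0.26 among members of at least 5 FPKM). Ccl2, which recruits monocytes, was at 24.4 and 47.9 FPKM (0.94), Ccl5, which recruits lymphocytes, at 3.83 and 7.96 FPKM (0.89), and Ccl7, a close relative of Ccl2, at 0.366 and 1.08 FPKM (0.61), beside Cxcl12. Cxcl10, induced by interferon, was at 6.02 and 4.76 FPKM (−0.29) and Cxcl1, which attracts neutrophils, at 2.88 and 2.28 FPKM (−0.24). Il6 was the only 1 of 20 cytokines and cytokine receptors past 1.5-fold, at 1.95 and 3.68 FPKM (0.66; list median 0.03). Of 15 leukocyte adhesion genes Selp was past it and the median was 0.25 (0.13 among long, unshared members). Sele, which encodes E-selectin, was at 10.7 and 16 FPKM (0.55), Vcam1, the ligand of integrin alpha 4, at 18.0 and 22.8 FPKM (0.33), and Icam1, the ligand of beta 2 integrins, at 40.4 and 37.4 FPKM (−0.11). Of 24 NF-kappaB subunits and regulators, 1 was higher and 2 lower (median −0.11). Nfkb1, the p105 subunit precursor, was at 30.1 and 19 FPKM (−0.64), Chuk, the kinase IKK alpha, at 36.3 and 21.9 FPKM (−0.70), and Traf1, a receptor adaptor, at 13.5 and 22.2 FPKM (0.68). Nfkbia, the inhibitor that GR is known to induce, was at 103 and 75.5 FPKM (−0.44).

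Of 31 interferon-stimulated genes, 1 was higher and 2 lower (median 0.00): Rsad2, the antiviral enzyme viperin, was at 21.4 and 12 FPKM (−0.78), Ifit1, with 10.8% of its sequence shared, at 31.3 and 16.4 FPKM (−0.89), and Oas2, an RNA sensor, at 1.05 and 2.17 FPKM (0.63). Of 21 genes of MHC class I presentation, 18 were higher by any amount and 1, H2-Q7, by 1.5-fold (median 0.13); H2-Q7 shares 39.2% of its sequence with other class I genes. None of 24 AP-1 and immediate early genes (median 0.00) and none of 22 MAPK phosphatases and feedback inhibitors (median −0.07) passed 1.5-fold; the first of these lists holds the Fos and Jun factors that bind the AP-1 element.

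All 13 measured collagen genes were higher with GR siRNA, 3 of them by at least 1.5-fold, with a median of 0.39 (0.13 when members under 1 FPKM are included). Col8a1, a short-chain collagen of vessel walls, was at 51.2 and 96.8 FPKM (0.91), and the fibrillar Col5a1 and Col5a3 were at 2.26 and 4.53 FPKM (0.76) and at 3.71 and 6.32 FPKM (0.64). Of 23 elastic fibre, crosslinking and matricellular genes, 6 were at least 1.5-fold higher and 1 lower (median 0.16). Restricted to members reaching 5 FPKM the median was −0.00061, and restricted to long, unshared members 0.33, so it depends on which members are counted. Eln, elastin, was at 3.97 and 7.32 FPKM (0.74), Loxl4, a lysyl oxidase, at 13.8 and 23.8 FPKM (0.75), Emilin2, an elastic fibre glycoprotein, at 0.961 and 3.01 FPKM (1.03), and Nov, a CCN family protein, at 1.29 and 4.16 FPKM (1.17), with Thbs2 and Dcn the other two. Dcn, the proteoglycan decorin, is also a fibroblast marker: it was at 0.297 and 2.73 FPKM (1.52), while Pdgfrb, a mural cell receptor, stood at 0.202 and 0.203 FPKM. Ankrd1, a target of YAP, was the lower member, at 12.8 and 8.03 FPKM (−0.61). Of 20 metalloproteinases and inhibitors Mmp2, gelatinase A, was at 27.4 and 41.8 FPKM (0.59) and no other passed 1.5-fold (median 0.08).

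Of 26 integrins and laminins, 4 were higher and 1 lower (median 0.11, and 0.03 among members of at least 5 FPKM). Itga4, the alpha 4 chain, was at 1.79 and 4.53 FPKM (0.99), Itga7, a laminin receptor chain, at 5.67 and 11.2 FPKM (0.87), and the laminin chain Lamc1 at 52.6 and 84.9 FPKM (0.68). Itgb3, the beta 3 chain of the vitronectin receptor, was lower, at 108 and 57.5 FPKM (−0.90). In TGF-beta and BMP signalling 3 of 31 were higher and 2 lower (median −0.06). The ligands Tgfb2 and Tgfb3 were at 1.32 and 2.79 FPKM (0.71) and at 8.78 and 16.9 FPKM (0.87), and Ltbp1, which stores latent TGF-beta in the matrix, at 5.02 and 10.8 FPKM (0.97). On the BMP and activin side, Smad1, a BMP signal transducer, was at 45.2 and 25.7 FPKM (−0.79) and Inhbb, the activin beta B chain, at 26.7 and 14.8 FPKM (−0.81). Of 20 mesenchymal and contractile genes, S100a4 (49.2% of its sequence shared) was higher and Tpm4 (20% shared) lower, with a median of 0.07.

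Of 29 genes of IGF, FoxO and insulin signalling, 2 were higher and 3 lower (median −0.04). Igfbp5, a binding protein for insulin-like growth factors, was at 355 and 177 FPKM (−1.0), Pik3ip1, an inhibitor of PI3 kinase, at 16 and 8.92 FPKM (−0.78), and Igfbp3 was the third. Deptor, an inhibitor of mTOR, was higher, at 6.31 and 11.7 FPKM (0.79), and the other higher member was Igf2, with 63.1% of its sequence shared. Of 18 long non-coding RNAs 15 were lower by any amount and 1, H19, by 1.5-fold (median −0.16); H19 was at 2.26 and 0.741 FPKM (−0.90), and Neat1, the scaffold of paraspeckles, at 167 and 123 FPKM (−0.44). Of these 18 RNAs, 11 were short or shared sequence, and the median of the others was −0.25. In the pair without DEX 12 of the 18 had the same sign, with a median of −0.27. In the lists of other cells, the fibroblast and mural list had Dcn as its only member past 1.5-fold of 5 measured (median 0.40), the epithelial and mesothelial list none of 4 (median 0.10), and the blood cell list 1 of 5, the platelet factor Pf4 (median 0.31).

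How far these differences were those of GR siRNA with no added ligand was read from the other pair of columns. Of 11325 genes measured without DEX, 267 (2.36%) were at least 1.5-fold higher with GR siRNA and 288 (2.54%) at least 1.5-fold lower. Among long, unshared genes, 181 were at least 1.5-fold lower with DEX and 179 without, and 135 were in both lists, which is 74.6% of the first and 75.4% of the second. On the higher side 187 and 171 genes passed, and 124 were in both, 66.3% and 72.5% of the lists. These shares depend on the cut at 1.5-fold. By sign alone, 179 of the 181 genes lower with DEX were also lower without DEX. Likewise 185 of the 187 genes higher with DEX were also higher without DEX. No long, unshared gene past 1.5-fold in one pair passed it in the opposite direction in the other. Among all genes, short and sequence-sharing ones included, 26 of the 297 lower and 12 of the 268 higher genes with DEX passed 1.5-fold in the opposite direction without DEX. The 2 pairs share no column, and every column is 1 culture condition with no replicate value.

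The difference with DEX less the difference without DEX passed 1.5-fold on the positive side for 86 of 11445 genes (0.751%) and on the negative side for 110 (0.961%). Of the long, unshared genes 10 and 8 passed. Lars2, the mitochondrial leucyl-tRNA synthetase, had the highest value among named genes (2.05): it was at 346 and 350 FPKM with DEX, and at 630 and 153 FPKM without it. This value rests on 1 column per condition, and the cause of the swing between columns was not tested. Sequence sharing was judged against other annotated genes only, so repeats outside them were not examined. Ccl2 came next (0.65), at 24.4 and 47.9 FPKM with DEX and 33.7 and 41.6 FPKM without. Within DEX the 2 arms were further apart for Ccl2, and the same was so for Ccl5 (0.52), at 4.69 and 6.35 FPKM without DEX. Il6 was at 2.18 and 2.12 FPKM without DEX (−0.03), against 0.66 with it. These genes did not stand for their lists. The median of the chemokine list was 0.12 with DEX and 0.16 without, and that of the cytokine list was 0.03 in both pairs. Ifi27l2a, an interferon-induced protein, was lower with GR siRNA in both pairs, at 64.0 and 38.6 FPKM with DEX and 73.6 and 30.1 FPKM without (0.55).

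On the negative side the named genes were Spata5l1, Zfp580, Fosb, Cyp1a1, Nucks1 and Lrfn4, with values from −0.56 to −0.48. Cyp1a1 was at 12.2 and 8.45 FPKM without DEX, where the arms were closer than with DEX. Fosb, a Fos family factor, was higher with GR siRNA in both pairs, at 12.9 and 18.3 FPKM with DEX and 6.67 and 14.1 FPKM without. Among GR-induced genes Ddit4 was at 373 and 238 FPKM without DEX (−0.64) and Tsc22d3 at 50.7 and 24.5 FPKM (−1.02), each less far apart than with DEX. For Zbtb16 the differences were −1.43 with and −1.38 without DEX, and for Ucp2 −1.87 and −1.49. The GR-induced list had a median of −0.20 without DEX and −0.18 with it, and 27 of its 29 members had the same sign in both pairs. The cholesterol list had medians of 0.35 without and 0.38 with DEX, and the collagens 0.46 and 0.39.

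**Figure D5:**
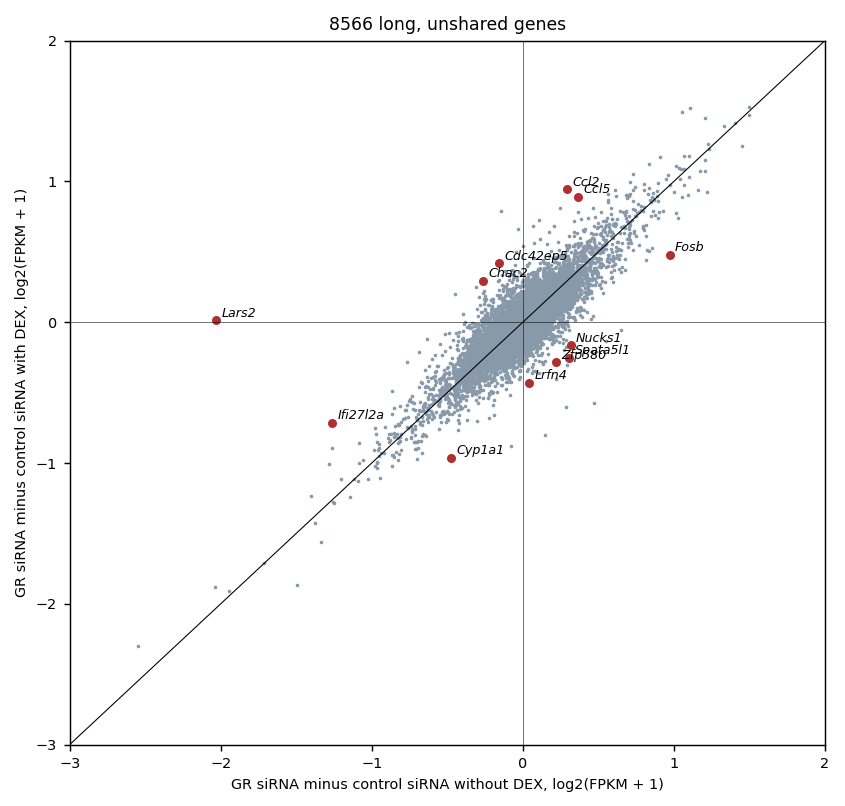
Difference of log2(FPKM + 1), GR siRNA minus control siRNA, without DEX (horizontal) and with DEX (vertical) for the 8566 long, unshared genes. The line marks equal differences. Red points are the 6 highest and 6 lowest differences of differences among named genes. Most genes lie near the line, and Lars2, at −2.03 without and 0.01 with DEX, lies farthest from it among the labelled genes.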

How the data were processed

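Total RNA of 4 samples was sequenced, and the authors deposited 1 table of FPKM values with 1 column per condition. TopHat2 (alignment) and Cuffdiff (quantification) on mm10 are named in the submitters' processing notes. Their versions, the annotation, the strand setting and how replicates were combined are not stated there. FPKM keeps no read counts, and read depth is unknown.

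Genes with at least 1 FPKM in either column were compared as differences of log2(FPKM + 1), which understates differences of low genes. Genes were counted at 1.5-fold and 2-fold. Sequence sharing, transcript length and 3′ regions came from GENCODE M21 (22702 genes matched by symbol, 927 by synonym, 368 not) and promoters from RefSeq. The naming rule took Nr3c1, the 15 highest and 15 lowest long, unshared genes of at least 5 FPKM without predicted genes or small RNAs, the 6 highest and 6 lowest differences of differences, and any list member. Suox, Serinc3 and the genes of the last section outside the lists were chosen after their values were seen. A few list members are counted but not reported here by name. Members and lists were chosen with earlier results of these data known. The steps were tested on simulated data. Alternatives were another pseudocount, filter and scaling, long and unshared genes only, and leaving out genes with the 3′ words. Calculations used Python 3.11.15, numpy 2.4.6 and pandas 2.3.3.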

Additional observations from a re-analysis of the deposited data

Results flagged for a closer look

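Among the 6 highest and 6 lowest named differences of differences, 5 genes had a GR siRNA difference of opposite direction with and without DEX. It was at least 1.1-fold each way, and the difference between the pairs was not tested. Choosing genes by that difference favours opposite directions. Cdc42ep5, an effector of the GTPase Cdc42, was higher with DEX (0.42) and lower without (−0.16), a difference of differences of 0.58. Chac2, which degrades glutathione, was likewise higher with DEX (0.29) and lower without (−0.27), 0.56 apart. Spata5l1, an ATPase of the AAA family, was lower with DEX (−0.25) and higher without (0.31), giving −0.56. Zfp580, a zinc finger protein, was lower with DEX (−0.28) and higher without (0.22), giving −0.50. Nucks1, a chromatin-associated phosphoprotein, was lower with DEX (−0.16) and higher without (0.32), giving −0.48.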

How the results depend on the processing

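No paired analysis was possible because the table has 1 column per condition and no replicates, so leaving out a replicate was also not possible. With a pseudocount of 0.1 FPKM, 137 genes passed 2-fold upwards and 129 downwards, and 427 passed 1.5-fold upwards and 395 downwards. With that pseudocount the difference of Nr3c1 was −1.41, and 130 differences of differences passed 1.5-fold on the positive side. With long, unshared genes only, 26 genes passed 2-fold upwards and 21 downwards, 181 passed 1.5-fold downwards, and 10 and 8 differences of differences passed 1.5-fold. Without genes holding the 3′ words, 188 were at least 1.5-fold lower and 212 at least 1.5-fold higher. Upper quartile and median ratio scaling shifted the median of all genes by 0.030 and 0.012. With upper quartile scaling 299 genes were at least 1.5-fold higher and 269 lower, and with median ratio scaling 280 and 280. At 2-fold the counts were 70 higher and 84 lower, and 67 and 86. The excess of lower genes at 1.5-fold was therefore not kept under these settings. Of the list medians recomputed, 343 kept their sign and moved by at most 0.1, 21 kept it and moved more, and 20 changed sign. The sign changes were elastic fibre genes at −0.00061, nuclear receptors at −0.0151 and AP-1 genes at −0.0296 with a filter of 5 FPKM; nuclear receptors at −0.0037, AP-1 genes at −0.0062, Wnt ligands at 0.0125, Wnt antagonists and targets at −0.0072, ephrins and semaphorins at 0.0034, clock genes at 0.0119 and epithelial markers at −0.00018 with no filter; histones at 0.0150 and junctions at 0.0166 with upper quartile scaling and junctions at 0.00036 with median ratio scaling; cytokines at −0.0363 and epithelial markers at −0.0119 with long, unshared genes only; and, without genes holding the 3′ words, metallothioneins at −0.00036, cytokines at −0.0363, endothelial identity at 0.00024, clock genes at 0.169 and the BCL2 family at 0.0525. Of the named genes' values, 14 moved, all with the smaller pseudocount. The cause was not tested.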

Other observations

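Several genes outside the lists also differed by 1.5-fold or more, and they were chosen after their values were seen. Rasd1, a small GTPase first found as a dexamethasone-induced gene, was at 5.51 FPKM in the control arm and 2.36 FPKM in the GR siRNA arm (−0.95), and at 4.82 and 2.01 FPKM without DEX. Atoh8, a helix-loop-helix factor, was at 19.5 and 9.86 FPKM (−0.92), and Mdfi, an inhibitor of myogenic factors, at 44.2 and 22.1 FPKM (−0.97). Slc40a1, the iron exporter ferroportin, was at 6.38 and 3.26 FPKM (−0.79). Hoxa5, a homeobox factor of lung development, was at 52.0 and 29.4 FPKM (−0.80), and Rcan1, an inhibitor of calcineurin, at 111 and 67.4 FPKM (−0.71).

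On the higher side, Dram1, a lysosomal protein that promotes autophagy, was at 6.82 and 13.8 FPKM (0.91). No list of autophagy or iron genes was examined. Gap43, a growth cone protein, was at 58.3 and 109 FPKM (0.90), Clu, the secreted chaperone clusterin, at 17.0 and 29.0 FPKM (0.73), and Abcg2, a drug efflux pump of endothelium, at 32.0 and 50.4 FPKM (0.64). Flrt2 and Flrt3, membrane guidance proteins, were at 6.34 and 10.9 FPKM (0.69) and at 1.98 and 5.04 FPKM (1.02).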
